A study of Mus musculus with 18 samples.

Results

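Gene expression with RBPJ F261A/A284V, a form of the Notch transcription factor RBPJ that carries 2 amino acid substitutions, was compared with an empty vector in mouse T cells depleted of RBPJ. The comparison rests on 8 of the 18 RNA sequencing libraries of the study, 4 per group, and was tested on 11544 of the 24391 genes in the deposited table. These are the genes with a normalized count of at least 10 in 4 or more of the 8 libraries. A normalized count is the number of reads of a gene divided by a size factor of its library, so it compares libraries and not genes of different length.

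The whole study used E2-10HA, a mouse hybridoma line, that is, a T cell line made by fusing a T cell with a tumour cell. For the rescue, these cells were depleted of RBPJ and then received by infection the plasmid pMY-Bio IRES Blasticidin (the empty vector), the same plasmid with Flag-tagged mouse RBPJ, either Flag-mRBPJ WT CRr or Flag-mRBPJ F261A/A284V CRr, and all 12 libraries came from cells selected with blasticidin. The other 6 libraries, from a hairpin against L3MBTL3 and a scramble hairpin, were not analysed here. All 3 rescue groups therefore share the line, the depletion and the selection, and they differ by the plasmid insert. All values come from this 1 line, with no primary T cells, and the labels do not say whether replicates were separate cultures or infections. Accordingly, a p-value here reflects only how far these samples spread, and that spread may be technical.

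RBPJ binds DNA at sites with the core sequence TGGGAA. Without a Notch signal it can recruit corepressors, such as the protein encoded by Spen or the MBT domain protein L3MBTL3, and hold its target genes down. When a Notch receptor is cut by its ligand-triggered protease, the freed intracellular part binds the same RBPJ molecule with a Mastermind coactivator and the targets are transcribed. Both substituted residues lie in the beta-trefoil domain, through which RBPJ touches Notch and a number of its corepressors.

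Library depth and the arrangement of the replicates bear on every value below. The recovered reads numbered 5923799 to 7921533 per library in replicates 1 and 2 and 3553505 to 3946804 in replicates 3 and 4 of the 2 groups. Replicates 1 and 2 differed from replicates 3 and 4 across the transcriptome in all 3 rescue groups. The labels do not say what divides them, so the 2 sets were treated as batches and entered as a term in the fit. Within the vector group replicates 1 and 2, within RBPJ WT again 1 and 2, and within the mutant 3 and 4 differed from each other by less than sampling noise, and each such pair was averaged and counted as 1 sample, which leaves n = 3 per group. The vector then holds 1 sample of the first batch and 2 of the second, and the mutant 2 and 1, so group means mix the batches unequally; values are therefore given per library, always in the order of replicates 1, 2, 3 and 4, and differences come from the fit. Of 14 T cell markers, 11 are in the table, and their summed level was 6739 to 10067 in the vector libraries and 6692 to 9898 with the mutant. Cd5, a T cell marker, was low at 1.27 to 6.14 across the 12 libraries. The B cell markers summed to at most 2.67 with the mutant, with Ms4a1, Pax5 and Ebf1 at 0 in all 12 libraries. Myeloid markers, led by Cd68, summed to 287 to 313 with the vector and 276 to 309.5 with the mutant. Natural killer cell markers, led by Tbx21, a gene T cells also express, summed to 48.9 to 112 and 42.6 to 96.4, with Klrk1 at 0. Stroma markers summed to 1032 to 1936 and 1004 to 2030 and were led by Vim, which T cells also express, with Col1a2, Col3a1 and Dcn at 0. Red cell markers, led by Klf1, summed to 8.21 to 23.9 with the vector and 7.35 to 12.7 with the mutant, with Hbb-bs at 0.

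The delivered gene was checked first. Rbpj read 317, 317, 255 and 272 with the empty vector, 729, 685, 922 and 919 with the mutant and 644, 627, 802 and 818 with RBPJ WT. All libraries of either form lay above all vector libraries, in both batches. The mutant exceeded the vector by 1.51 on the log2 scale (95% interval 1.30 to 1.72, limma adjusted p = 2.4e-08), or 2.85-fold, and RBPJ WT exceeded it by 1.41 (adjusted p = 4.4e-09). The mutant minus WT difference was 0.10 (interval -0.11 to 0.31, adjusted p = 0.757). The vector libraries still held 255 to 317 normalized counts of Rbpj. The table gives 1 value per gene symbol, so transcripts of the cells' own gene and of the plasmid cannot be told apart. L3mbtl3, which encodes the MBT domain partner of RBPJ, read 660.2, 616, 604 and 627 with the vector and 639.9, 633, 727 and 760.0 with the mutant. Its libraries overlapped in the first batch, and the difference of 0.12 (interval -0.02 to 0.26) did not pass the test.

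**Figure D1:**
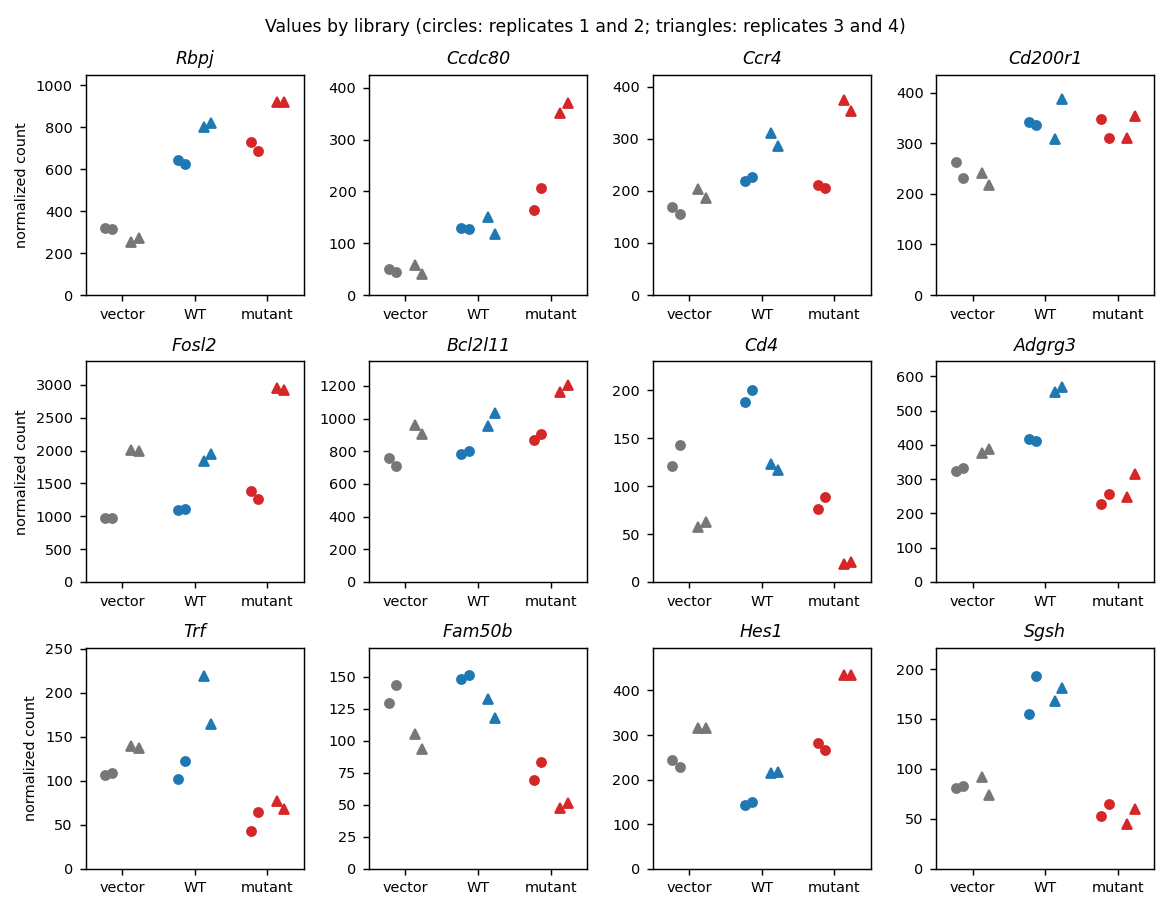
Normalized count per library (y axes start at 0) for 12 genes, with the empty vector in grey, RBPJ WT in blue and the F261A/A284V mutant in red; each point is 1 library, circles for replicates 1 and 2 and triangles for replicates 3 and 4. Rbpj and Ccdc80 lie above all vector libraries with both forms, and Cd4 falls to 18.5 and 20.6 in mutant replicates 3 and 4.

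Few genes separated the mutant from the empty vector. Of 11544 genes tested, 11 differed (0.0953%), 6 higher (0.052%) and 5 lower (0.0433%), at a limma adjusted p under 0.05. At an unadjusted p under 0.05 there were 581 genes (5.03%). The genes higher with the mutant were Rbpj, Ccdc80, Ccr4, Cd200r1, Fosl2 and Bcl2l11. The genes lower with it were Cd4, Adgrg3, Trf, Fam50b and a predicted gene model. All 11 had mutant libraries entirely above or below the vector libraries within each batch, which was so for 581 genes in the higher direction (5.03%) and for another 581 in the lower (5.03%). The 95% interval of a gene reached 0.16 to either side on the log2 scale at the median. From the same fit, 227 genes differed between the mutant and RBPJ WT (1.97%; 126 higher, 1.09%, and 101 lower, 0.875%), and 175 between RBPJ WT and the vector (1.52%; 75 higher, 0.65%, and 100 lower, 0.866%). The mutant and RBPJ WT share the same vector libraries as control, so their differences from the vector are given side by side and were compared only through the mutant minus WT test.

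The count of 11 depends on how the near-identical libraries and the batches enter. With all 12 libraries kept apart and the replicate number as a block, 76 genes passed (0.658%), and with the batch term on 12 libraries 81 did (0.702%), 46 higher (0.398%) and 35 lower (0.303%). In both, the 11 genes were among those called. Both fits treat each near-identical pair as 2 samples, and this limit holds wherever their p-values are given below. Without the batch term 1 gene was called, Rbpj. Leaving out empty vector replicate 3 or empty vector replicate 4 left 3 genes, Rbpj, Ccdc80 and Fam50b, which also passed without any other single library.

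**Figure D2:**
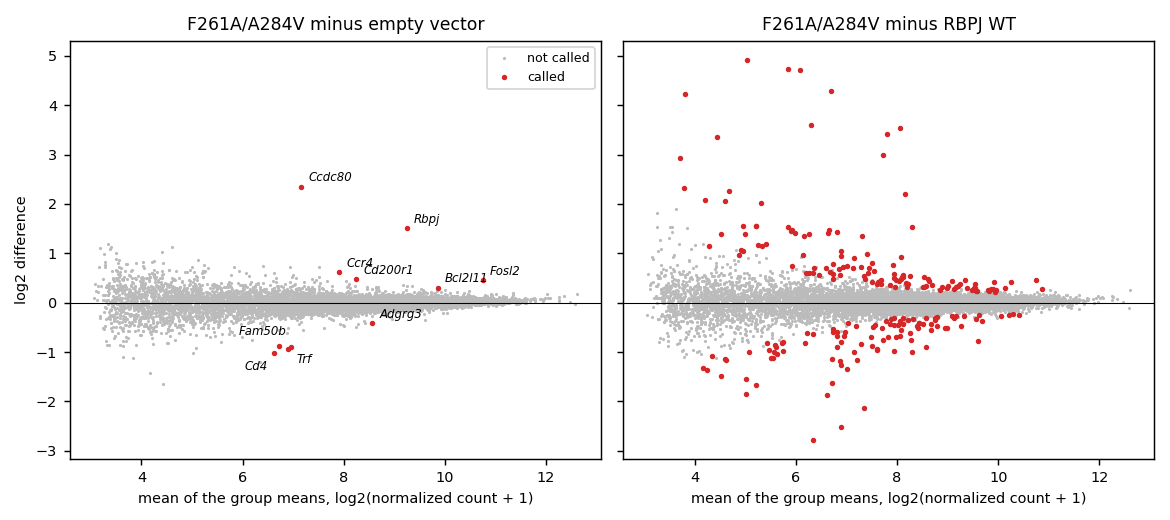
Log2 difference (y axis) against the mean level over the 3 groups (x axis, log2 of normalized count + 1) for the 11544 genes tested, with genes called at an adjusted p under 0.05 in red. Against the empty vector (left) 11 genes are called, and against RBPJ WT (right) 227, some of them above a log2 difference of 4.

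Among the genes that rose with the mutant, Ccdc80 moved furthest. Ccdc80 encodes a secreted protein that associates with the extracellular matrix. It read 51.1, 45, 58.9 and 39.7 with the vector, 129, 127, 152 and 118 with RBPJ WT and 164, 207, 351 and 370.4 with the mutant. The 3 groups did not overlap, with the mutant highest. Ccdc80 rose by 2.35 over the vector (interval 1.95 to 2.74, SE 0.189, adjusted p = 4.72e-07), a 5.08-fold difference on the scale of normalized count + 1, and by 1.43 with RBPJ WT (adjusted p = 6.09e-05). The mutant stood 0.92 above RBPJ WT (interval 0.52 to 1.31, adjusted p = 0.00923). By batch, the mutant minus vector difference was 1.92 in replicates 1 and 2 and 2.87 in replicates 3 and 4.

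Genes of 2 receptors rose with the mutant to levels near those with RBPJ WT. Ccr4 encodes the receptor for the chemokines CCL17 and CCL22, which guide helper and regulatory T cells. It read 169.8, 155, 204 and 186 with the vector, 212, 206, 374 and 353 with the mutant and 219.8, 227, 312 and 287 with RBPJ WT. The mutant lay above the vector within each batch, although mutant replicates 1 and 2 were close to vector replicate 3 of the other batch. Ccr4 rose by 0.62 with the mutant (interval 0.41 to 0.83, adjusted p = 0.0103) and by 0.56 with RBPJ WT (adjusted p = 0.0019), and the mutant minus WT difference was 0.05 (interval -0.16 to 0.26). Cd200r1, an inhibitory receptor for the membrane protein CD200, read 262, 231, 241 and 219 with the vector, 348, 310.1, 311 and 354 with the mutant and 341, 336, 309.5 and 388 with RBPJ WT. All 4 mutant libraries exceeded all 4 vector libraries. Cd200r1 rose by 0.48 with the mutant (interval 0.30 to 0.66, adjusted p = 0.0277) and by 0.55 with RBPJ WT (adjusted p = 0.000638), with a mutant minus WT difference of -0.07 (interval -0.25 to 0.12). The call of Ccr4 was lost without vector replicate 3 or 4 (adjusted p 0.0603 and 0.0771). That of Cd200r1 was lost without any 1 of 6 libraries, namely vector replicates 2, 3 and 4 and mutant replicates 1, 2 and 4 (adjusted p 0.0618 to 0.183).

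Fosl2 and Bcl2l11 rose with the mutant, and neither passed the test with RBPJ WT. Fosl2 encodes Fra-2, a subunit of the transcription factor AP-1. It read 980.1, 975, 2008 and 1994 with the vector, 1094, 1108, 1841 and 1945 with RBPJ WT and 1390.1, 1262, 2953 and 2918 with the mutant. Fosl2 differed widely between the batches in every group, and within each batch both mutant libraries lay above both vector libraries and both WT libraries. The rise over the vector was 0.46 (interval 0.31 to 0.61, adjusted p = 0.00882), the RBPJ WT minus vector difference was 0.003 (adjusted p = 0.994), and the mutant stood 0.46 above RBPJ WT (interval 0.31 to 0.61, adjusted p = 0.000765). Bcl2l11 encodes BIM, a protein of the BCL2 family that promotes apoptosis. It read 757, 710.1, 959.7 and 906 with the vector, 867, 905, 1164 and 1202 with the mutant and 785, 800.3, 953 and 1036 with RBPJ WT. The separation from the vector was small but present within each batch. Bcl2l11 rose by 0.30 (interval 0.18 to 0.42, adjusted p = 0.0468), and the difference between the mutant and RBPJ WT, 0.20 (interval 0.08 to 0.32), did not pass over all genes (adjusted p = 0.0816). Without vector replicate 3 or 4 the adjusted p of Fosl2 was 0.054 and 0.0603. Bcl2l11 lost its call without vector replicate 2, 3 or 4 or mutant replicate 2 or 4 (adjusted p 0.0631 to 0.243).

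Of the genes that fell with the mutant, Cd4 and Adgrg3 rose with RBPJ WT. Cd4, the coreceptor of helper T cells, read 121, 143, 57.5 and 62.7 with the vector, 188, 200.2, 124 and 117 with RBPJ WT and 76.5, 88.1, 18.5 and 20.6 with the mutant. Within each batch RBPJ WT was highest, the vector lay between and the mutant was lowest, with no overlap. Cd4 fell with the mutant, at a log2 difference of -1.03 (interval -1.44 to -0.62, adjusted p = 0.0468), rose by 0.84 with RBPJ WT (adjusted p = 0.0225), and differed by -1.87 between the mutant and RBPJ WT (interval -2.28 to -1.46, adjusted p = 5e-06). Adgrg3 encodes an adhesion G protein-coupled receptor, also known as GPR97. It read 323, 333, 376 and 388 with the vector, 416, 413, 555 and 568 with RBPJ WT and 227, 257, 248 and 315 with the mutant. All 4 mutant libraries lay below all 4 vector libraries, and all 4 WT libraries lay above them. The log2 difference from the vector was -0.42 with the mutant (interval -0.57 to -0.26, adjusted p = 0.0212) and 0.48 with RBPJ WT (adjusted p = 0.000346), and the mutant minus WT difference was -0.90 (adjusted p = 1.13e-07). The mutant minus vector call of Cd4 was lost without any 1 of 6 libraries, namely vector replicates 2, 3 and 4 and mutant replicates 1, 2 and 3 (adjusted p 0.0618 to 0.243). That of Adgrg3 was lost without vector replicate 3 or 4 or mutant replicate 1 or 3 (adjusted p 0.0673 to 0.12).

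Trf and Fam50b also fell with the mutant. Trf encodes transferrin, the iron carrier of plasma. It read 107, 108, 139.6 and 138 with the vector, 102, 122, 219 and 164 with RBPJ WT and 42.7, 64.7, 77 and 67.6 with the mutant. All 4 mutant libraries lay below every library of the other groups. Trf was lower than with the vector by a log2 difference of -0.94 (interval -1.26 to -0.61, adjusted p = 0.0105), RBPJ WT minus vector was 0.32 (adjusted p = 0.424), and the mutant minus WT difference was -1.26 (adjusted p = 3.53e-05). Fam50b read 129.8, 143, 105 and 93.2 with the vector, 148, 151, 132 and 118 with RBPJ WT and 69.4, 83.1, 47.7 and 51.5 with the mutant. The mutant libraries again lay below all others. The Fam50b differences were -0.88 from the vector (interval -1.15 to -0.61, adjusted p = 0.00552) and -1.15 from RBPJ WT (adjusted p = 1.35e-05), while RBPJ WT minus vector was 0.27 (adjusted p = 0.438). Trf was not called without vector replicate 3, vector replicate 4 or mutant replicate 1 (adjusted p 0.054 to 0.0639). Leaving out vector replicate 3 or 4 left the predicted gene model uncalled as well (adjusted p 0.0518 and 0.054).

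**Figure D3:**
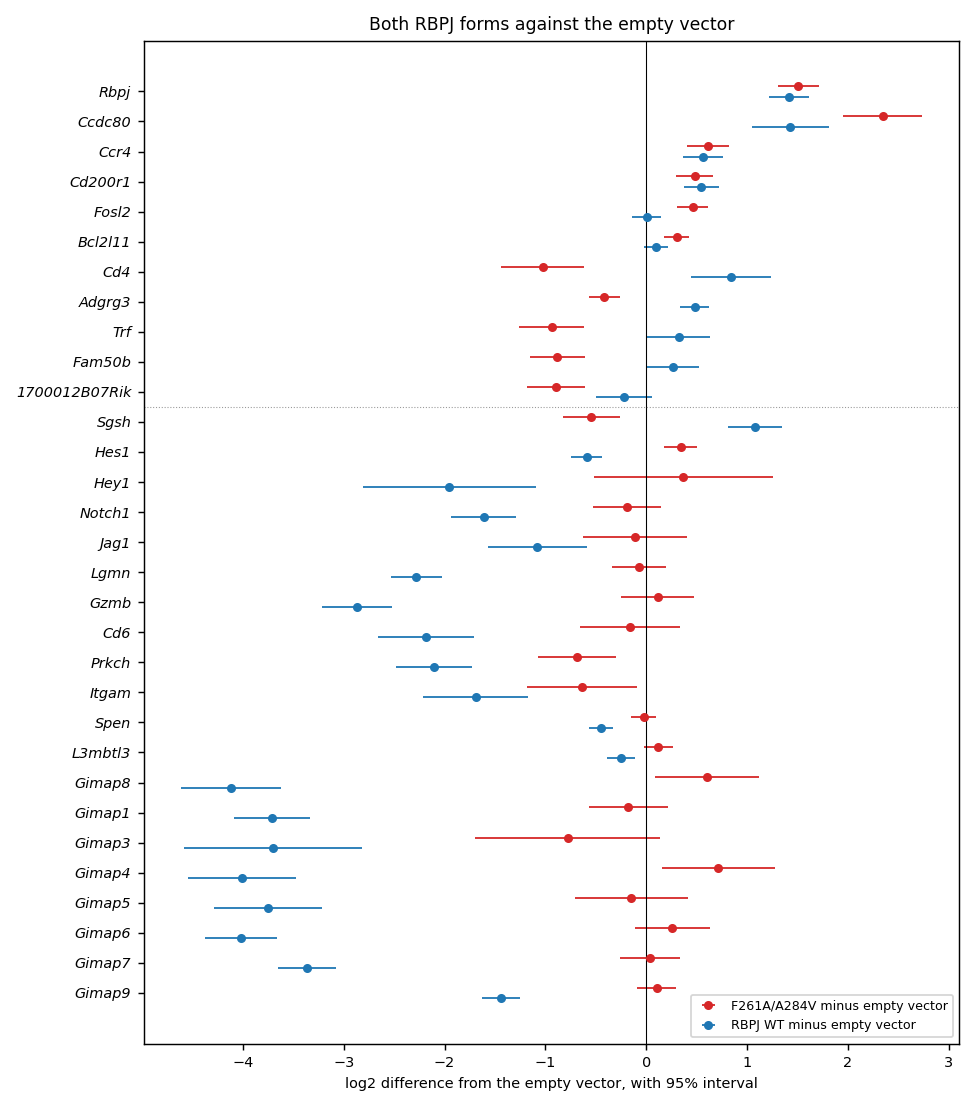
Log2 difference from the empty vector (x axis) with its 95% interval for the mutant (red) and RBPJ WT (blue), by gene; genes above the dotted line were called for the mutant. Cd4, Adgrg3, Trf, Fam50b, Sgsh, Hes1, Gimap4 and Gimap8 have the intervals of the 2 forms on opposite sides of 0. The intervals are not adjusted for the number of genes, and of these genes only Cd4 and Adgrg3 passed the test for both forms. The 8 Gimap genes lie between -4.12 and -1.44 with RBPJ WT and between -0.78 and 0.72 with the mutant.

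Promoter sequences were searched for the core of the RBPJ binding site, TGGGAA on either strand, in the 250 bases before each annotated start (RefSeq, build GRCm38.p6). Of the 11 called genes, 7 have an entry, and 2 of these hold the core, Rbpj and Fam50b, against 23% of the 8625 tested genes with an entry. The longer form GTGGGAA, of which the core is a part, occurred in 0 of the 7, against 6.12% of the same 8625 genes. Of 20 genes named for comparison with RBPJ WT below, 15 have an entry and 1 holds the core, Spen, whose match is also one to the longer form. The sequences with a match are shown so that the letters can be read beside the expression values; capitals mark the core or its reverse complement TTCCCA. Fam50b has another annotated start, further upstream, with no match, and Rbpj has a second start downstream whose window overlaps the one shown. The match starts at position 102 and, in reverse, 186 of the Rbpj window (chr5:53590096-53590345, plus strand), at position 72 for Fam50b (chr13:34739392-34739641, plus strand) and at position 243 for Spen (chr4:141538598-141538847, minus strand), counted from the 5′ end. A match of these letters is a description and not evidence of binding.
Rbpj: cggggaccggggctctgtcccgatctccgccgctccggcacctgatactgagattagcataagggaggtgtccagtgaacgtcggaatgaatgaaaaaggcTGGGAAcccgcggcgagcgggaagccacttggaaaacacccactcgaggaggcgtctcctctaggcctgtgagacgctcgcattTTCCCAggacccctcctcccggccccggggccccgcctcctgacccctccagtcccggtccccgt
Fam50b: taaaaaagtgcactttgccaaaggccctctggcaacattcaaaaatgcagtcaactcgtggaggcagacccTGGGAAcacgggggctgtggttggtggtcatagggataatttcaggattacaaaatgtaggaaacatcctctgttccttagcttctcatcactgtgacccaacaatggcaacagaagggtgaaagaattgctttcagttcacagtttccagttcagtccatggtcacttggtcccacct
Spen: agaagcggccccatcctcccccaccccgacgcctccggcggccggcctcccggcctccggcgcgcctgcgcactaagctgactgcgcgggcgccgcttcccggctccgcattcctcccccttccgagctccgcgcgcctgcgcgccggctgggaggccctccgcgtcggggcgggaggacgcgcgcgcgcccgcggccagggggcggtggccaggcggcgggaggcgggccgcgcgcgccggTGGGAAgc

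Genes known from earlier results of these data to fall with RBPJ WT were then read with the mutant, and their WT values are given as a description. GIMAP proteins are GTPases that act in lymphocyte survival. None of the 8 tested Gimap genes was called for the mutant against the vector, beside 0.0953% of all genes, with a median log2 difference of 0.07 beside 0.01 over all genes tested. With RBPJ WT all 8 fell (median -3.73 beside -0.01 over all genes, of which 0.866% fell), and all 8 were higher with the mutant than with RBPJ WT (median 3.57 beside 0.02 over all genes, of which 1.09% were higher). Gimap8 read 77.4, 84.6, 75.3 and 76.4 with the vector, 4.78, 3.17, 2.55 and 4.22 with RBPJ WT and 88.1, 92.6, 168 and 179 with the mutant. All mutant libraries lay above all vector libraries, further in the second batch. The difference of 0.60 had an interval of 0.08 to 1.12 and did not pass over all genes (adjusted p = 0.852). Gimap4 read 78, 59.3, 47.9 and 61.1 with the vector and 103, 101, 122 and 107 with the mutant, likewise without overlap, at 0.72 (interval 0.16 to 1.27, adjusted p = 0.783). The intervals of the other 6 included 0: those of Gimap1 (-0.56 to 0.21), Gimap5 (-0.71 to 0.41), Gimap6 (-0.11 to 0.63), Gimap7 (-0.26 to 0.34) and Gimap9 (-0.09 to 0.30) excluded a change of 1 in either direction, and that of Gimap3 (-1.70 to 0.14), which read 20.3, 19.1, 27.4 and 19.9 with the vector, did not. Gimap genes resemble each other in sequence, so the counting may have split or shared reads among them.

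For Gzmb and Lgmn, which encode proteases, RBPJ WT was likewise the lowest group. Gzmb, the cytotoxic protease granzyme B, read 206, 204, 344 and 347 with the vector, 41.6, 39.3, 34.4 and 42.2 with RBPJ WT and 206, 209, 482 and 454 with the mutant. The mutant lay above the vector in both batches, in the first by a small margin (206.46 for mutant replicate 1 beside 205.86 for vector replicate 1). The fitted difference was 0.11 (interval -0.25 to 0.48) against -2.87 with RBPJ WT (adjusted p = 4.53e-10). Lgmn, the lysosomal protease legumain, read 349, 398, 409 and 393 with the vector, 102, 101, 82.8 and 60.4 with RBPJ WT and 377, 360.2, 417 and 392 with the mutant. The mutant and vector libraries overlapped in both batches, at -0.07 (interval -0.34 to 0.19), while RBPJ WT stood apart at -2.28 (adjusted p = 1.3e-10). For Gzmb and Lgmn the mutant exceeded RBPJ WT by 2.98 and 2.21 (adjusted p = 3.98e-10 and 3.35e-10).

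In the Notch pathway, members were taken by role. Among receptors and ligands, Notch1 read 177, 178, 122 and 113 with the vector, 73.7, 67.8, 40.8 and 28.1 with RBPJ WT and 141, 203, 87.8 and 112 with the mutant. The ligand gene Jag1 read 43.9, 43, 32.9 and 27.5 with the vector, 17.1, 20.3, 17.8 and 11.2 with RBPJ WT and 29.4, 45, 23.1 and 38.2 with the mutant. For Jag1, mutant and vector libraries overlapped in both batches. For Notch1 they overlapped in the first batch, and in the second the mutant lay below the vector. The mutant minus vector differences were -0.19 (interval -0.53 to 0.15) for Notch1 and -0.11 (interval -0.62 to 0.40) for Jag1, against -1.61 and -1.08 with RBPJ WT (adjusted p = 1.31e-06 and 0.0172). Of 34 tested genes of the pathway, 1 rose with the mutant, beside 0.052% of all genes, and 0 fell, beside 0.0433%, with a median of 0.03. The 1 that rose is Rbpj, the delivered gene. With RBPJ WT 1 rose, beside 0.65% of all genes, and 3 fell, beside 0.866%, a description only, since the list was chosen with earlier results known.

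Among Notch targets, Hes1, a transcriptional repressor and classical target of Notch, read 243, 228, 315 and 316 with the vector, 142, 150.2, 215 and 216 with RBPJ WT and 282, 266, 434 and 435 with the mutant. Within each batch the order was RBPJ WT below the vector and the vector below the mutant, with no overlap. The mutant minus vector difference was 0.34 (interval 0.18 to 0.50), short of the threshold (adjusted p = 0.139). It passed with the replicate block (adjusted p = 0.0135) and with 12 libraries kept apart (adjusted p = 0.00695). Both of these fits count near-identical libraries as separate samples. RBPJ WT lowered Hes1, at -0.59 (adjusted p = 5.87e-05), and the mutant stood 0.93 above RBPJ WT (adjusted p = 1.43e-07). Hey1, a related repressor, read 33.4, 21.1, 6.84 and 4.58 with the vector and 27.6, 28.5, 9.24 and 13.2 with the mutant, a difference of 0.37 whose interval of -0.52 to 1.26 is wide at these low counts. Of 20 tested targets, 0 passed with the mutant (median -0.04), beside 0.0953% of all genes, a share at which none of 20 says nothing particular about these genes. With RBPJ WT 6 of them fell, beside 0.866% of all genes, namely Gzmb, Lgmn, Hey1, Notch1, Jag1 and Hes1. The members were chosen with earlier results of these data known, so this count is only a description.

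Among the corepressors of RBPJ, Spen read 1339, 1342, 1346 and 1304 with the vector, 997, 988, 1011 and 923 with RBPJ WT and 1389, 1379, 1210.3 and 1251 with the mutant. The mutant lay above the vector in the first batch and below it in the second, at -0.02 (interval -0.15 to 0.10), while RBPJ WT lay below the vector in every library, at -0.45 (adjusted p = 6.55e-05). The 21 tested corepressor genes had a median mutant minus vector difference of 0.02, and 0 were called, beside 0.0953% of all genes.

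For other genes that RBPJ WT moved, namely Cd6, Prkch, Itgam and Sgsh, the fitted mutant minus vector difference was below 0, and none was called. Cd6, a T cell surface receptor, read 48.5, 39.6, 64.3 and 64.2 with the vector and 24.9, 34.9, 80.1 and 82.3 with the mutant, lower in the first batch and higher in the second (fitted -0.16, interval -0.66 to 0.33), against -2.19 with RBPJ WT. Prkch, which encodes the eta isoform of protein kinase C, read 121, 120.1, 78 and 79.5 with the vector, 25.9, 32.3, 20.4 and 14.1 with RBPJ WT and 89, 93.2, 46.2 and 30.9 with the mutant. The mutant lay between RBPJ WT and the vector in both batches. Its difference of -0.69 (interval -1.08 to -0.30) had an adjusted p of 0.289. With the replicate block, which counts near-identical libraries as separate samples, the limma adjusted p was 0.0347. The mutant exceeded RBPJ WT for Prkch by 1.42 (adjusted p = 8.15e-05). Itgam, the integrin chain CD11b, which is best known from myeloid cells, had a mutant minus vector difference of -0.64 (interval -1.18 to -0.09, adjusted p = 0.842) and stood 1.05 above RBPJ WT (adjusted p = 0.0375). Sgsh encodes sulfamidase, which helps break down heparan sulfate in lysosomes. It read 80.6, 82.5, 91.7 and 73.4 with the vector, 155, 193, 168 and 181 with RBPJ WT and 52.5, 65.3, 44.7 and 60.3 with the mutant. The 3 groups did not overlap, with the mutant lowest. Sgsh differed by -0.54 between mutant and vector (interval -0.83 to -0.26, adjusted p = 0.184; 0.0254 with the replicate block), rose by 1.08 with RBPJ WT (adjusted p = 2.96e-05) and differed by -1.63 between the mutant and RBPJ WT (adjusted p = 1.43e-07).

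Genes beside Ccdc80 and Adgrg3 were looked at by gene order (RefSeq, GRCm38.p6), a choice made after the values were seen and given without a test. On chromosome 16, the tested genes Cd200r1, Cd200r4, Cd200r2 and Ccdc80 follow each other. Cd200r4, a relative of the CD200 receptor, read 252, 224, 212 and 211 with the vector, 283.9, 276, 217 and 275 with RBPJ WT and 298, 301, 317 and 326 with the mutant, and all mutant libraries lay above all vector libraries (0.45, interval 0.25 to 0.64, adjusted p = 0.0952; 0.00416 with the replicate block). Cd200r2 read 51.1, 43, 49.3 and 39.7 with the vector and 57, 53.9, 89.3 and 89.7 with the mutant (0.57, interval 0.15 to 0.99, adjusted p = 0.729). The next tested genes outward had smaller differences, 0.11 for Gtpbp8 on one side and 0.05 for Slc35a5, 0.12 for Atg3 and 0.17 for Btla on the other. Btla, an inhibitory receptor of lymphocytes, was lower with RBPJ WT, at -0.58 (adjusted p = 0.00163).

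On chromosome 8, Adgrg5, Adgrg1 and Adgrg3 follow each other and encode receptors of 1 family. Adgrg1, also known as GPR56, read 121, 136, 142 and 139 with the vector, 169, 175, 247 and 214 with RBPJ WT and 95.2, 97.7, 81.6 and 77.9 with the mutant. Adgrg5 read 241, 242, 164 and 142 with the vector, 277, 279, 206 and 247 with RBPJ WT and 185, 204, 87.8 and 80.8 with the mutant. For Adgrg1 all mutant libraries were below all vector libraries and all WT libraries above them, and for Adgrg5 this order held within each batch. The mutant minus vector differences were -0.56 for Adgrg1 (interval -0.82 to -0.29, adjusted p = 0.139; 0.0116 with the replicate block) and -0.51 for Adgrg5 (interval -0.80 to -0.22, adjusted p = 0.289; 0.0342 with the block). The mutant stood below RBPJ WT by log2 differences of -1.17 and -0.95 (adjusted p = 7.9e-06 and 0.000313). On the side that is reported here, the flanking gene Dok4 had a mutant minus vector difference of -0.19 (interval -0.46 to 0.08). Reads of family members can be shared, in both neighbourhoods.

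**Figure D4:**
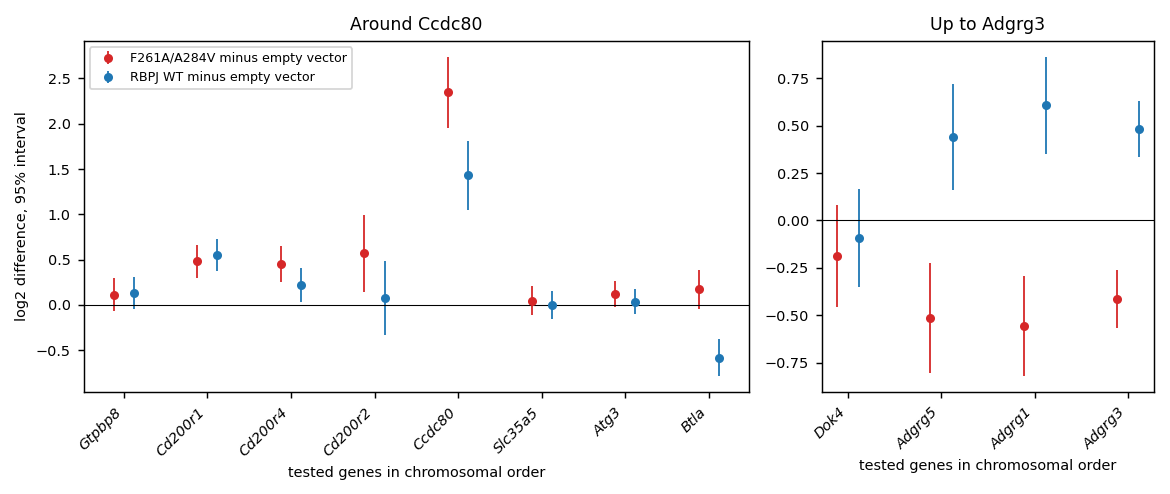
Log2 difference from the empty vector (y axis) with its 95% interval for tested genes in chromosomal order around Ccdc80 (left) and up to Adgrg3 (right), mutant in red and RBPJ WT in blue. The 4 genes from Cd200r1 to Ccdc80 have mutant intervals above 0 and the 3 Adgrg genes mutant intervals below 0, while mutant intervals of the flanking genes shown include 0.

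A wider set of genes, 81 (0.702%), passed when the near-identical libraries were counted separately. Some other settings also called more than 11 genes, such as 47 with only the mutant and the vector in the fit. The p-values with 12 libraries and with the replicate block treat each near-identical pair as 2 samples, whereas the fit that called 47 genes averaged these pairs. The genes named here were chosen after their values were seen. Tgfb3, a ligand of the TGF-beta family, read 139, 153, 182 and 176 with the vector, 143, 157, 122 and 139 with RBPJ WT and 219.8, 248, 265 and 226 with the mutant. The mutant was above every vector and WT library, at 0.52 over the vector (interval 0.30 to 0.75, adjusted p = 0.0952, or 0.00466 with 12 libraries and 0.00558 with the replicate block) and 0.81 over RBPJ WT (adjusted p = 0.000105). Lamc1, a laminin chain of basement membranes, read 116, 122, 153 and 156 with the vector and 158, 205, 299 and 331 with the mutant (0.72, adjusted p = 0.11, or 0.00644 with 12 libraries and 0.00672 with the block). Itgb3 and Itgav, the 2 chains of the vitronectin receptor, had mutant minus vector differences of 0.33 and 0.19 (adjusted p = 0.0368 and 0.0302 with 12 libraries, 0.0465 and 0.0342 with the block, 0.312 and 0.375 with 9 samples). The matrix gene Tnxb, also among the 81, went the other way, at -0.80 (limma adjusted p = 0.0241 with 12 libraries, 0.0227 with the block, 0.223 with 9 samples).

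Other genes among the same 81 are given one by one. The phosphodiesterase gene Pde4d, which breaks down cyclic AMP, read 716, 743, 1006 and 1015 with the vector and 853, 832, 1244 and 1227 with the mutant (0.23). Rgs2, a regulator of G protein signalling, had a difference of 0.35, the kinase gene Sik1 one of 0.25 and Crem, a transcription factor that responds to cyclic AMP, one of 0.34. The adjusted p of Pde4d, Rgs2, Sik1 and Crem lay between 0.00466 and 0.00896 with 12 libraries, between 0.00437 and 0.0158 with the replicate block, and between 0.11 and 0.238 with 9 samples. Rapgef3, which encodes a cyclic AMP sensor, went the other way, at -0.34 (limma adjusted p = 0.0141 with 12 libraries, 0.022 with the block, 0.243 with 9 samples). Tnfrsf9, the costimulatory receptor 4-1BB, read 587, 607, 1238 and 1272 with the vector and 754, 688, 1495 and 1477 with the mutant (0.23, adjusted p = 0.443; 0.0329 with the block), and the mutant stood 0.42 above RBPJ WT (adjusted p = 0.000812). In the lower direction, the tyrosine kinase gene Tec read 340.3, 337, 312 and 301 with the vector and 277, 304, 169 and 172 with the mutant (-0.50, interval -0.72 to -0.28, adjusted p = 0.101; 0.00957 with the block). The difference was -0.84 in the second batch and -0.22 in the first. Cd52, a lymphocyte surface glycoprotein, read 111, 117, 114 and 136 with the vector and 97.9, 89.4, 61.6 and 73.5 with the mutant (-0.52, adjusted p = 0.334; 0.0465 with the block), and stood below RBPJ WT at -0.80 (adjusted p = 0.00297). Scin, an actin-severing protein, read 233, 243, 108 and 127 with the vector, 75.1, 95, 31.8 and 35.1 with RBPJ WT and 182, 180.1, 64.7 and 66.2 with the mutant, so that the mutant lay between the other groups within each batch. Scin differed by -0.62 between mutant and vector (adjusted p = 0.107; 0.00957 with the replicate block), fell with RBPJ WT, at -1.68 (adjusted p = 2.8e-08), and was higher with the mutant than with RBPJ WT by 1.06 (adjusted p = 4.36e-05).

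Of 26 gene lists for pathways and cell functions, 7 held a gene called for the mutant, 1 each, where 0.0953% of all genes tested were called. At that share a list without a called gene is no result about the list. These were Rbpj in the Notch pathway, Cd4 of 20 tested genes of the T cell receptor and its signalling, Ccr4 of 19 for chemokine receptors and homing, Cd200r1 of 6 inhibitory receptors, Bcl2l11 of 20 for apoptosis, Fosl2 of 23 for stress and immediate early genes, and Ccdc80 of 15 for matrix and secreted proteins. List medians lay between -0.06 (38 cell cycle genes) and 0.08 (inhibitory receptors), beside 0.01 over all genes tested. Mki67, the proliferation marker, had a difference of 0.02 (interval -0.19 to 0.22) and Top2a, a topoisomerase of dividing cells, one of -0.01 (interval -0.17 to 0.16). None of 32 interferon response genes, 24 replication histones, 27 ATF4 targets, 28 cholesterol and lipid genes, 32 genes of glycolysis and hypoxia, 17 p53 targets, 40 lysosome genes or 17 genes of MHC class I was called. As examples, the fatty acid synthase gene Fasn differed by 0.04 (interval -0.12 to 0.19) and the lysosomal protease gene Ctsd by 0.04 (interval -0.10 to 0.18). None of 22 T cell transcription factor genes was called, and Bcl11b and Tcf7, factors of T cell identity, differed by 0.04 (interval -0.08 to 0.16) and -0.02 (interval -0.16 to 0.13). Among 10 tested genes of the MBT family, which includes L3mbtl3, and 38 histone methylation enzymes, 0 were called.

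**Figure D5:**
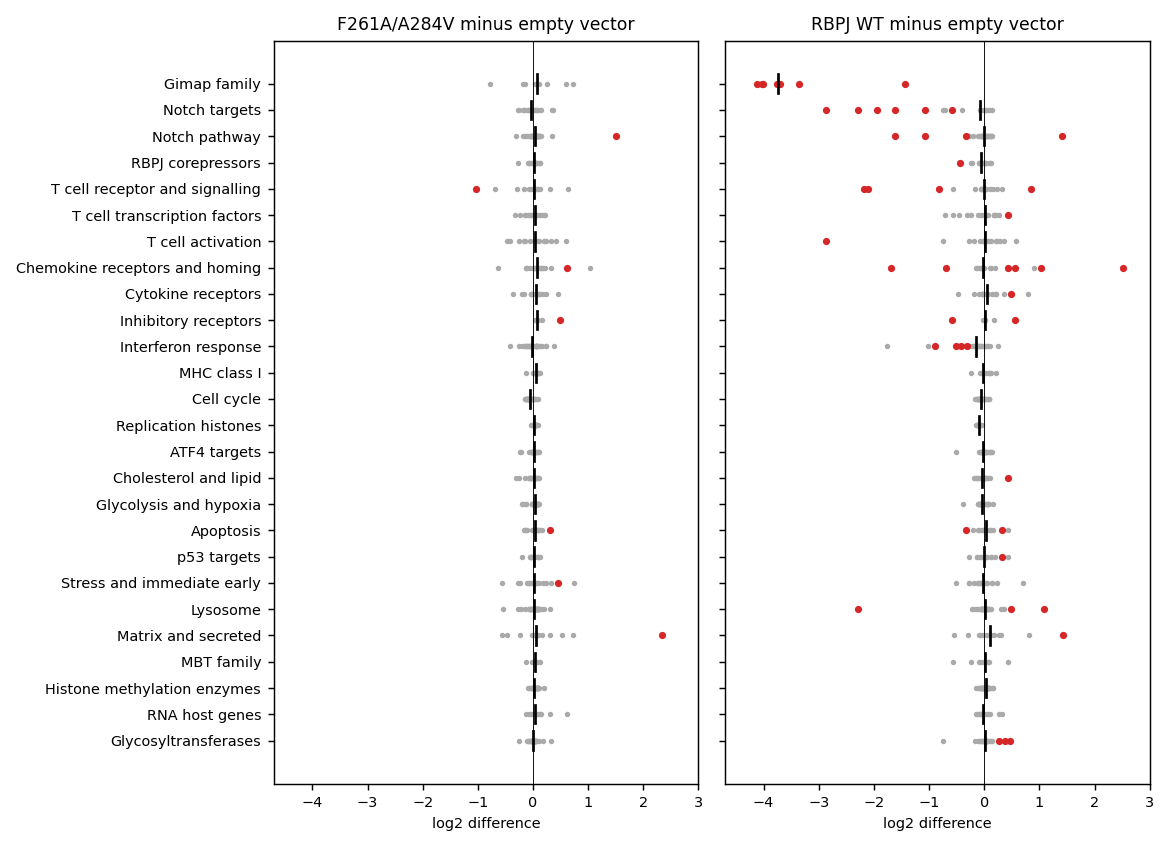
Log2 difference from the empty vector (x axis) of each tested gene of 26 lists (rows), for the mutant (left) and RBPJ WT (right); red points were called and black bars are list medians. Medians for the mutant lie between -0.06 and 0.08, and the Gimap genes lie between -0.78 and 0.72 on the left and at a median of -3.73 on the right.

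The batches were also read one by one. For 10 of the 11 called genes the mutant minus vector difference was further from 0 in replicates 3 and 4 than in replicates 1 and 2. The share of all tested genes with this order was not counted, so it is no result about the called genes. Replicates 3 and 4 alone called 134 of 11544 genes with limma and replicates 1 and 2 alone 15. Both of these fits counted near-identical libraries as separate samples, so the 2 counts do not measure the size of the effect. The mutant minus vector difference was 1.15 and 1.80 for Rbpj in the first and second batch, 0.36 and 0.89 for Ccr4, and -0.68 and -1.57 for Cd4. Adgrg3 (-0.44 and -0.45), Fosl2 (0.44 and 0.55) and Cd200r1 (0.42 and 0.53) differed less between the batches, and Trf (-1.02 and -0.93) was the exception. A test of whether the mutant minus vector difference itself differed between the batches was chosen after the data were seen. It called 0 of 11544 genes with limma, with 249 at an unadjusted p under 0.05. Of the 11 called genes, Rbpj, Ccdc80, Ccr4 and Cd4 were among these 249, and the others were not. With 1 vector sample in the first batch and 1 mutant sample in the second, 0 calls do not show that the batches agreed. The Rbpj level of the mutant libraries was 685.5 and 729 in the first batch and 919 and 922 in the second, and the part of that difference in the other genes was not tested. The depth of the second batch was also lower, and its part was not tested.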

How the data were processed

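RNA sequencing libraries of a mouse T cell hybridoma were deposited as a table of normalized counts, a signal per gene that the authors made by dividing read counts by size factors; the submitters' processing notes list the tools DESeq2 1.24.0 and TopHat2 2.1.1 with the build mm9 and give them no role. No source used here names the read counter, its annotation or its strand setting. Low values were whole multiples of 1 read (within 0.1 read) for 100% of values, which gave each library's reads.

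Genes with a value of at least 10 in 4 or more of the 8 libraries were kept. Libraries of 1 group and batch that agree within sampling noise (a chi-square statistic of their reads below 1 per degree of freedom: 0.859 for vector replicates 1 and 2, 0.719 for RBPJ WT replicates 1 and 2, 0.82 for mutant replicates 3 and 4) were averaged; other pairs of a batch gave 1.06 to 2.56 and pairs across batches 9.58 to 17.8. The log2 of value + 1 was fitted with limma 3.58.1 (R 4.3.3, trend) over all 3 rescue groups, with group and batch as terms. Tests were 2-sided, p-values were adjusted over the 11544 genes by the Benjamini-Hochberg method with a threshold of 0.05, and intervals are at 95%. Differences are log2 differences on this scale, which understates changes of low genes. The procedure was tested on simulated data.

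Same-numbered libraries of different groups deviated together from their group means (r 0.562 to 0.827 over 12 pairs), as did libraries of the same batch with other numbers (0.585 to 0.844), whereas pairs across batches gave -0.771 to -0.502. The range for same-numbered libraries was no higher than that for other libraries of the same batch. These values thus show no pairing by number beyond the batch. The replicate block is printed where it changes a call, only as an alternative setting, and it counts near-identical libraries as separate samples. On the recovered reads, edgeR 4.0.16 called 39 genes and DESeq2 1.42.0 called 15. Other alternatives were the pseudocount, the filter, the scaling, sample weights, 1 batch alone and leaving out each library.

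Genes named are Rbpj, L3mbtl3, every called gene (predicted models counted only), called list members and 20 comparison genes; others are said to be chosen after their values were seen. The comparison, the lists and the named genes were chosen with earlier results of these data known. Promoters are from RefSeq (GRCm38.p6) and were matched by symbol. The knockdown libraries were left out because they are outside the comparison, and a few genes are not reported here.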

Additional observations from a re-analysis of the deposited data

How the results depend on the processing

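The count of genes that differed between the mutant and the empty vector, 11, was 81 with 12 libraries kept apart, 76 with the replicate block that pairs libraries by number, 47 with only these 2 groups in the fit, 46 with sample weights, 39 with edgeR on the recovered reads, 134 in replicates 3 and 4 alone, 5 with no filter on low values (18336 genes tested) and 1 with no batch term. All 11 genes were still called under each of these except the last 2, which kept 3 and 1. Leaving out 1 library gave 3 to 12 genes, the 3 without empty vector replicate 3 or replicate 4. Pseudocounts of 0.5 and 5, a filter over 12 libraries, quantile scaling, DESeq2 and replicates 1 and 2 alone gave 10 to 15. Cd4 was lost with a pseudocount of 0.5 (adjusted p = 0.0512), Bcl2l11 with quantile scaling (0.0582), and Bcl2l11, Ccr4 and Cd200r1 in replicates 1 and 2 alone (0.108, 0.138 and 0.0701, all from limma). The count against RBPJ WT, 227, was 592 with 12 libraries kept apart, 548 with the replicate block, 818 in replicates 3 and 4 alone, 127 with no filter and 12 with no batch term, and 167 to 242 without 1 library. Keeping libraries apart raises the number of samples by construction. The replicate block and the fits of 1 batch alone also counted near-identical libraries as separate samples. For the other changes the cause was not tested. No named gene that was called changed direction. Depth sets a limit for low genes such as Hey1, whose intervals are wide, and with 3 samples per group a gene that missed the threshold was not shown to be alike in both groups.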
